A study of Mus musculus with 4 samples.

Results

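The genes described here are named as proteins of the mitochondrial ribosome, and all but Mrps36 encode such proteins. They were taken by name: every protein-coding gene of the RefSeq GRCm38 annotation whose symbol starts with Mrpl or Mrps followed by a digit. This gave 78 of the 21883 protein-coding genes on chromosomes 1 to 19, X and Y, of which 49 carry an Mrpl and 29 an Mrps symbol. Within the series the family was selected on its counts of SCI and sham peaks and of shared positions, so these are given as a description, with no test.

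STAT3, a transcription factor switched on by interleukin-6 and related cytokines, was profiled in mouse spinal cord by ChIP-seq, in which an antibody pulls down the DNA bound to a protein for sequencing. The SCI library came from C57BL/6 mice with a moderate contusion of 60 kdyn at thoracic level 9, taken 7 days later. The sham library came from C57BL/6 mice with a laminectomy at that level and no contusion, also taken at 7 days. Each library pooled tissue of 3 mice around the epicentre. The cells were dissociated and filtered, and the protocols in the labels name no sort for a cell type. The lists hold no expression values, so the cells could not be checked against markers, and a change in the mix of cells cannot be told apart from a change per cell. Each condition had 1 STAT3 library, so no difference between SCI and sham has a replicate check. The 2 input libraries were not analysed here.

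Mitochondria keep a small genome that codes for core subunits of the respiratory chain, and they translate it on a ribosome of their own. Every protein of that ribosome is encoded in the nucleus, made in the cytosol and imported. The large subunit holds the centre where peptide bonds form and an exit tunnel that opens at the inner membrane. The small subunit reads the messenger RNA. Many of these proteins descend from bacterial ribosomal proteins, and others are found in mitochondria alone. In spinal cord, neurons and glia rely on respiration for much of their energy, and STAT3 is best known there for its part in the reaction of astrocytes to injury.

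The deposited lists gave 36249 SCI peaks and 88765 sham peaks on these chromosomes. Their usual widths were 164 bp in SCI and 190 bp in sham. Each peak carries a score, the authors' own value for its strength, which was 5 or more throughout. No source used here says whether SCI and sham scores share a scale. A peak is therefore also placed in its own list by the share of that list with a score as high or higher, written as its top percent. A peak at the lowest score of 5 stands at 100%. Read counts are not part of the lists, so the depth is unknown.

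Mrpl30 had a peak of each condition over its start of transcription. Mrpl30, a large-subunit protein with a bacterial counterpart, has gene ID 107734 and lies on chromosome 1 from 37890477 to 37898338. The SCI peak at chr1:37890376-37890539 had a score of 7.14 and stood at the top 51.9% of the SCI list. The sham peak at chr1:37890405-37890594 had a score of 31.0 and stood at the top 2.42% of the sham list. Within their own lists, the SCI peak was thus of middle strength and the sham peak among the strongest. Mitd1, which codes for a protein of the last step of cell division, lies next to Mrpl30 on its upstream side. The nearer edge of Mitd1 is 8 bp from the centre of the SCI peak, so the peaks lie at both genes. Whether this edge is the start or the end of Mitd1 was not determined here.

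Mrpl9, another large-subunit protein with a bacterial counterpart, had a sham peak at the upstream edge of its gene and no SCI peak there. The gene (gene ID 78523) lies on chromosome 3 from 94443154 to 94448708. The sham peak at chr3:94443126-94443315 had a score of 22.7 and stood at the top 6.35% of the list. The RefSeq start used for the promoter below is 94443336, so the peak ends before that start, at -21 bp. The nearest SCI peak lay 1191 bp beyond the gene, with a score of 10.8 at the top 21.5%.

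The promoters of both genes are shown because they are the only ones, of the 69 members in the RefSeq promoter table, that a peak overlapped. They run from 250 bases before the start to 50 bases from it on, on the plus strand, from RefSeq on GRCm38.p6, at chr1:37890227-37890526 for Mrpl30 and at chr3:94443086-94443385 for Mrpl9. Capitals mark, in Mrpl30, the 122 bases under the SCI and the sham peak alike, and in Mrpl9 the 190 bases under the sham peak.
Mrpl30: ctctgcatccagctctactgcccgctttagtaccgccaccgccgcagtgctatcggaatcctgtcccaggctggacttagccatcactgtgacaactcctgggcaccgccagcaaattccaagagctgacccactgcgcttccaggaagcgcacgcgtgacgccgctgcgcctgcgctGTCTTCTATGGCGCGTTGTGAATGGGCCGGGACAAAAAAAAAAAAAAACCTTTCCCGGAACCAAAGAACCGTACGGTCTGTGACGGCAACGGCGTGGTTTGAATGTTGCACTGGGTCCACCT
Mrpl9: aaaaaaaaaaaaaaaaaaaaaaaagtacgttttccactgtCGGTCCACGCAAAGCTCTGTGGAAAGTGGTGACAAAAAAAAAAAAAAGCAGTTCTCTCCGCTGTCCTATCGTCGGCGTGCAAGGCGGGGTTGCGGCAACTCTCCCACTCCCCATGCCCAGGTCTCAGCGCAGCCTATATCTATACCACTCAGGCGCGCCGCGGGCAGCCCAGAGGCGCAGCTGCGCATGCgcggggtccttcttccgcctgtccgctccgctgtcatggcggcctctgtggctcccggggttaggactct

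The capitals of Mrpl30 hold the letters TTCCCGGAA, which fit TTCNNNGAA, the core that STAT dimers are known to bind. The match begins at -21, counted from the start with minus for bases before it. A further match, TTCCAGGAA, begins at -111, outside the capitals. The window of Mrpl9 held no such letters. It held GCGCATGCG, the core of the site of NRF1, a nuclear regulator of genes for mitochondrial proteins, from -28 on, at the downstream edge of the sham peak. Both windows also hold runs of A, of at most 15 bases in Mrpl30 and 24 in Mrpl9. A match describes the letters and shows no binding by the factor.

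**Figure D1:**
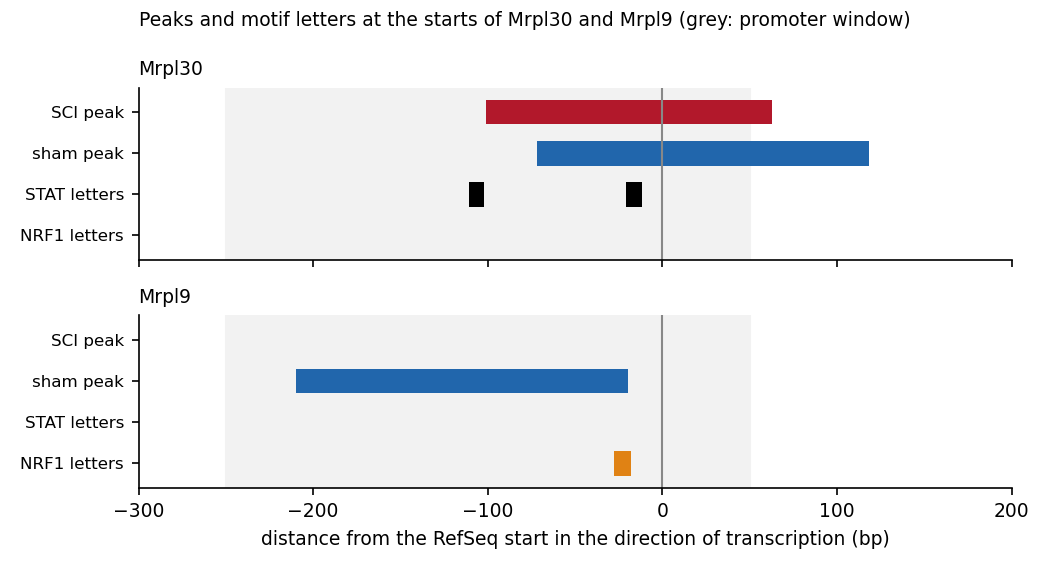
Peaks and motif letters around the RefSeq starts of Mrpl30 and Mrpl9, as distance from the start in bp along the direction of transcription. Red bars are SCI peaks, blue bars sham peaks, black bars matches to TTCNNNGAA and orange bars matches to GCGCATGCG, and the grey area is the promoter window. At Mrpl30 the SCI peak covers -101 to 62 bp and the sham peak -72 to 117 bp, and at Mrpl9 the sham peak covers -210 to -21 bp.

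Peaks over promoters were rare in all genes. Of the 78 members, 69 matched the RefSeq promoter table. Of these 69, 1 had an SCI peak over its promoter (Mrpl30), against 0.72% of 17491 protein-coding genes, and 2 had a sham peak (Mrpl30 and Mrpl9), against 1.75%. With sham shortened to its 36249 highest scores, both sham peaks remained, against 0.698% of all promoters. No promoter of the 70 cytosolic ribosomal protein genes and of the 34 complex I subunit genes in the table had a peak of either list. The members not matched were Mrps28, Mrpl13, Mrpl4, Mrpl54, Mrps34, Mrpl38, Mrps35, Mrpl19 and Mrpl15.

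Over a wider window, a minority of the family had an SCI peak and most of it a sham peak. A gene was counted when it held the centre of a peak or had one no further than 5 kb away. By this rule 28 members had an SCI peak, 35.9% (95% exact binomial interval 25.3 to 47.6%), against 43.9% of all protein-coding genes. A sham peak was found at 52 members, 66.7% (55.1 to 76.9%), against 66.7% of all. The intervals cover counting error only and take the members as independent, although some share a peak. As the family was selected on these counts, the intervals serve as no test. With sham shortened to the number of SCI peaks, 36 members had one, 46.2%, against 44.9% of all.

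These genes are short, and short genes meet fewer peaks. The median length was 7690.5 bp in the family, from 825 bp (Mrpl53) to 121712 bp (Mrps28), against 17170 bp over all protein-coding genes. Among protein-coding genes of like length, taken from the same length deciles and weighted as the family is, 30.2% had an SCI peak, so the family stood 5.67 percentage points higher. For sham that share was 54.3%, and the family stood 12.4 points higher. With sham shortened it was 31.9%, and the family stood 14.3 points higher.

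Members also lay where genes and peaks are dense. Within 500 kb the median member had 19 protein-coding genes, against 15 for all protein-coding genes. It had 18 SCI peaks within that distance, against 16, and 48 sham peaks, against 39. With the background split by local peak density as well as length, the family stood 4.37 points higher in SCI and 9.31 points higher in sham. With local gene density in its place, the values were 6.28 points in SCI and 12.3 points in sham.

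The difference narrowed close to the genes. Within 1 kb, 17 members had an SCI peak, against 35.6% of all genes and 19.3% of those of like length, and 35 had a sham peak, against 54.5% and 36.0%. The shares of the family were 21.8% for SCI and 44.9% for sham. With sham shortened, 22 members had a peak there, 28.2%, against 36.6% of all and 20.5% of like length. Inside the gene, 14 members held an SCI peak (17.9%, against 33.4% of all and 16.7% of like length) and 27 a sham peak (34.6%, against 51% and 30.8%), and 19 with sham shortened (24.4%, against 34.5% and 17.7%). Within 10 kb, 41 members had an SCI peak (52.6%, against 52.2% of all and 41.0% of like length). A sham peak was found there at 66 (84.6%, against 76.8% and 69.0%), and at 47 with sham shortened (60.3%, against 53.9% and 43.7%). The family thus stood furthest above genes of like length at this widest window.

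**Figure D2:**
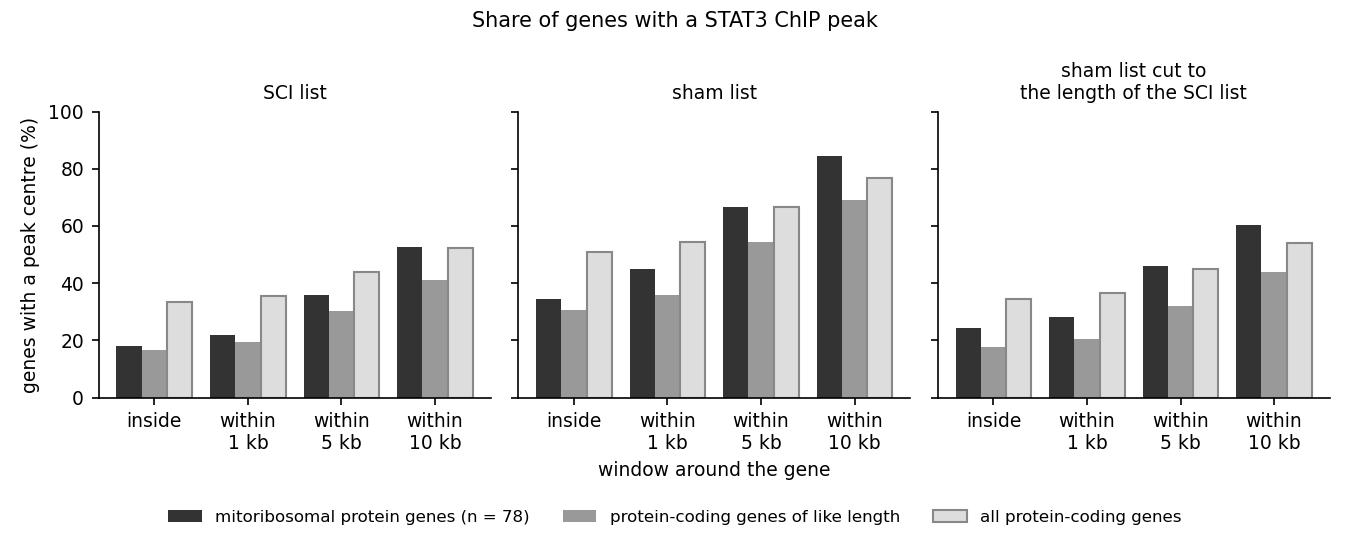
Share of genes (%) with a peak centre inside the gene or within 1, 5 or 10 kb, for the SCI list, the sham list and the sham list shortened to 36249 peaks. Black bars are the 78 mitoribosomal protein genes, mid-grey bars protein-coding genes of like length and light bars all protein-coding genes. The black bars lie above the mid-grey ones at every window, by 5.67 points in SCI and 12.4 points in sham at 5 kb.

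Most members with an SCI peak within 5 kb also had a sham peak, 24 of 28. So did most protein-coding genes with an SCI peak, 8172 of 9596. The members with both made up 30.8% of the family, against 37.3% of all genes and 22.2% of those of like length. SCI alone was found at 4 members, against 6.51% of all and 8.03% of like length. Sham alone was found at 28, against 29.3% and 32.1%. Either list had a peak at 56 members, against 73.2% and 62.3%. With sham shortened, 20 members had both (28.8% of all genes), 8 SCI alone (15.1%) and 16 sham alone (16.2%). Counting only peaks at or above the median score of their list, 16 members had an SCI peak (28.9% of all genes) and 39 a sham peak (49.6%).

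The members drew 40 SCI peaks and 97 sham peaks within 5 kb, 17 and 46 of them inside the gene. In SCI 50 members had no peak, 21 had 1 and 7 had more. In sham 26 had none, 24 had 1 and 28 had more. The SCI peaks scored 5 to 17.97 with a median of 7.41, against 7.48 for all SCI peaks within 5 kb of a protein-coding gene. The sham peaks scored 5 to 46.4 with a median of 9, against 8.19. Of the 40 SCI peaks 4 stood in the top 10% of the list, a share of 10%, against 10.2% near any coding gene. Of the 97 sham peaks 16 did, 16.5%, against 10.7%.

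The window cuts close to some members. In SCI the farthest nearest peak counted was that of Mrps12 at 3965 bp, and the first beyond was that of Mrpl39 at 5189 bp. In sham these were Mrps7 at 4754 bp and Mrpl57 at 5821 bp. The shortened sham list ends at a score of 9.20, and it kept 46 of the 97 peaks, the lowest at 9.32 and the next below at 9.18. Many of these peaks also lie at neighbours: 11 SCI and 32 sham peaks were nearer to another protein-coding gene, and 20 SCI and 45 sham peaks had the member as the only such gene within 5 kb.

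The counts were also split by symbol, Mrpl or Mrps, which largely follows the subunit. The Mrps group includes Mrps18a and Mrps30, whose proteins sit in the large subunit, and Mrps36, which is outside the ribosome. None of these had an SCI peak within 5 kb. Of 49 Mrpl genes, 20 had an SCI peak, 40.8%, against 27.8% of genes of like length. Of 29 Mrps genes, 8 did, 27.6%, against 34.4%. In sham, 32 Mrpl genes had a peak, 65.3%, against 51.6%, and 20 Mrps genes, 69.0%, against 58.8%. Within 1 kb the SCI shares were 22.4% of Mrpl genes, against 16.5% of like length, and 20.7% of Mrps genes, against 24.1%. Inside the gene they were 18.4%, against 13.8%, and 17.2%, against 21.5%. The sham shares inside the gene were 38.8% of Mrpl genes, against 26.8%, and 27.6% of Mrps genes, against 37.5%. In raw shares the symbol groups thus lay closer together near the gene in SCI, and in sham their order turned with the window. Against like length, Mrpl genes stood above and Mrps genes below at each SCI window given. Inside the gene in sham the same held, while at 5 kb in sham both stood above. The difference between them was not tested.

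Of 30 large-subunit genes with a bacterial counterpart, 16 had an SCI peak within 5 kb and 19 a sham peak, against 28.2% and 52.7% of genes of like length. Of 19 large-subunit genes known from mitochondria alone, 4 had an SCI peak and 13 a sham peak, against 27.1% and 49.9%. Closer in, these classes differed less in SCI or the other way round. Within 1 kb, 23.3% of the genes with a bacterial counterpart and 21.1% of the mitochondria-specific ones had an SCI peak, and inside the gene 16.7% and 21.1%. In the small subunit, 4 of 16 genes with a bacterial counterpart had an SCI peak within 5 kb and 12 a sham peak, against 33.6% and 57.1% of like length. Of 10 mitochondria-specific ones, 4 had an SCI peak and 7 a sham peak, against 36.5% and 61.7%. Of the Mrps symbols whose proteins sit in the large subunit, Mrps18a had sham peaks alone and Mrps30 none. Mrps36, whose protein belongs to the oxoglutarate dehydrogenase complex of the citric acid cycle, had no peak of either list.

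**Figure D3:**
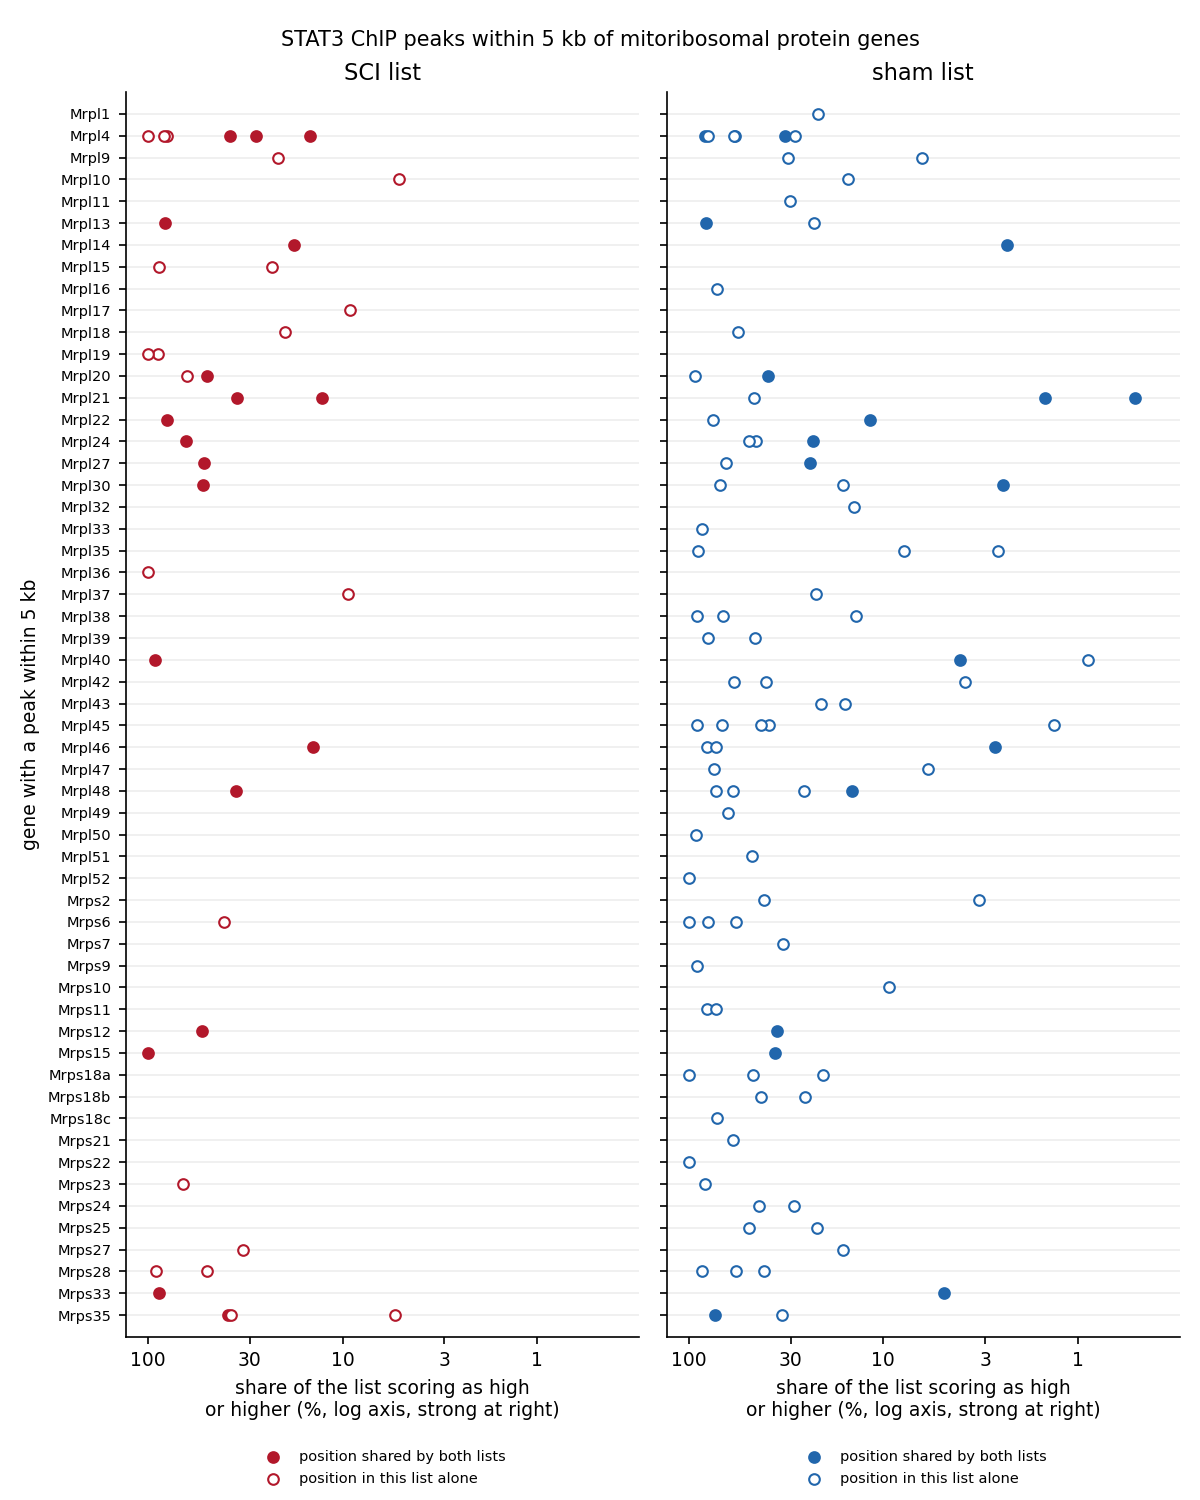
Every peak within 5 kb of the 56 members with a peak, SCI at left and sham at right. The x axis is the share of the list scoring as high or higher (%, log axis), so strong peaks lie at the right. Filled circles are positions shared by both lists and open circles positions of that list alone. Mrpl4 has 6 peaks in each list, and the sham peaks of Mrpl21 and Mrpl40 lie furthest to the right.

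Shared positions, where an SCI and a sham peak overlapped by at least 1 bp, numbered 19 at 16 members. This was 20.5% of the family, against 16.5% of all protein-coding genes and 9.88% of those of like length. Within 1 kb 10 members had one, against 13.2% of all and 5.99% of like length, and inside the gene 8 had one, against 12.4% and 5.10%. Of the 40 SCI peaks at members, 47.5% were shared, against 23.0% of SCI peaks within 5 kb of any protein-coding gene. Of the 97 sham peaks, 19.6% were shared, against 9.30%.

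Sharing moves with the form of the score. Some scores come from whole numbers by a fixed form, since taking the score plus 1, dividing by 2 and squaring gives a whole number to within 0.0001. In the SCI list few such peaks near coding genes were shared, 5.09%, and they made up 17.5% of the peaks at members, against 30.8% near any coding gene. In sham they made up 13.4% at members, against 21.2%. Among SCI peaks of other scores, 18 of 33 at members were shared, 54.5%, against 30.9% near any coding gene. Without the peaks at Mrpl4, 16 of 34 were shared, 47.1%.

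The sham peak stood higher in its list than the SCI peak in its own at 14 of the 19 shared positions. This count was not made over all shared positions, so it cannot be called a trait of these genes. The standings also come from lists of unlike length, 36249 SCI and 88765 sham peaks. Mrpl21, a large-subunit protein with a bacterial counterpart (gene ID 353242, chromosome 19, 3282997 to 3292837), had both the strongest shared position and the strongest sham peak of the family. Its shared position 3387 bp beyond the gene had an SCI score of 13.4 (top 12.7%, chr19:3296143-3296306) and a sham score of 35.6 (top 1.47%). The position inside the gene had an SCI score of 8.78 (top 34.9%, chr19:3286713-3286876) and a sham score of 46.4 (top 0.508%, chr19:3286633-3286822). Both conditions therefore met at each place, with the sham peaks near the head of their list.

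Mrpl46 and Mrpl14 also had shared positions inside the gene that were strong in both lists. Mrpl46, a mitochondria-specific protein of the large subunit (gene ID 67308, chromosome 7, 78775341 to 78783089), had an SCI score of 12.8 (top 14.2%) and a sham score of 30.2 (top 2.67%). The sham peak there, chr7:78776202-78776251, is only 50 bp wide. Mrpl14 is a large-subunit protein to which the assembly factor MALSU1 is known to bind (gene ID 68463, chromosome 17, 45685722 to 45698495). Its SCI peak at chr17:45685655-45685818 scored 11.8 (top 17.7%) and the sham peak 31.4 (top 2.32%), where the gene overlaps Tmem63b. Their centres lay just inside the edge of the gene, at -613 bp (SCI) and -571 bp (sham) from the RefSeq start used for its promoter.

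Mrpl4, whose protein lies along the exit tunnel, had the most peaks of all members, 6 in SCI and 6 in sham (gene ID 66163, chromosome 9, 21001252 to 21008839). The SCI peaks all lay outside the gene, at 1349 to 4484 bp, and 1 of the sham peaks lay inside. Its 3 shared positions had SCI scores of 12.7, 9.71 and 8.46 (top 14.7, 27.8 and 37.9%) and sham scores of 10.7, 5.73 and 7.36 (top 32.0, 82.1 and 58.0%). At all 3 the SCI peak stood higher in its list. The peaks with scores of 12.7 and 8.46 in SCI lie 2922 and 2617 bp from Icam1, an adhesion molecule gene, and are nearer to it than to Mrpl4.

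The remaining shared positions stood higher in the sham list, except at Mrps35 and, by a small margin, at Mrpl13. Mrpl40, a mitochondria-specific protein, had an SCI score of 5.03 (top 92.2%) and a sham score of 26.7 (top 4.04%) inside the gene. Mrps33, a mitochondria-specific protein of the small subunit, had 5.30 (top 87.8%) in SCI and 24.9 (top 4.89%) in sham, also inside. At these 2 genes an SCI peak near the bottom of its list met a sham peak near the top.

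Mrpl22, whose protein lines the exit tunnel, had 5.71 (top 80.1%) in SCI and 17.7 (top 11.8%) in sham, inside Gemin5. Mrpl48, a mitochondria-specific protein, had 8.75 (top 35.3%) in SCI and 16.1 (top 14.5%) in sham inside the gene. Mrpl24, which helps form the rim of the tunnel exit, had 6.49 (top 63.8%) in SCI and 12.8 (top 23.1%) in sham. Both lay 3124 bp beyond the gene, inside Rrnad1. Mrpl27, known in bacteria to reach toward the peptidyl transferase centre, had 7.21 (top 51.5%) in SCI and 12.5 (top 23.9%) in sham, inside Eme1. In this group the SCI peaks spanned the middle and lower part of their list and the sham peaks all stood within the top 23.9%.

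Mrpl20, known in bacteria as an early assembly protein, had 7.41 (top 49.9%) in SCI and 9.44 (top 39.3%) in sham. The centre of its SCI peak lay 1151 bp beyond the gene and nearer to Ccnl2, at 237 bp. Mrps12, a protein of the decoding centre, had 7.02 (top 52.6%) in SCI and 10.04 (top 35.1%) in sham, inside Sars2, the gene of mitochondrial seryl-tRNA synthetase. Mrps15 had the lowest SCI score, 5 (top 100%), and 9.95 (top 36.1%) in sham, inside Oscp1. Mrpl13, a large-subunit protein with a bacterial counterpart, had 5.60 (top 81.7%) in SCI and 5.75 (top 82.0%) in sham. Mrps35, a mitochondria-specific protein of the small subunit, had 8.37 (top 38.7%) in SCI and 6.27 (top 72.9%) in sham.

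**Figure D4:**
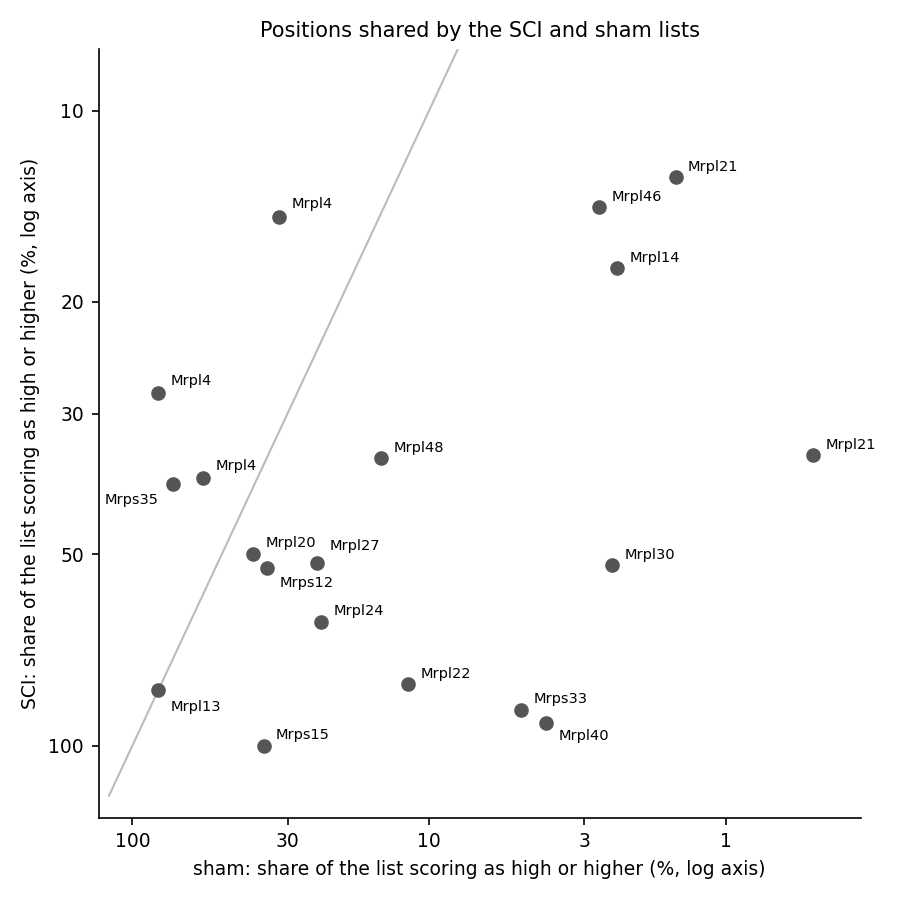
The 19 shared positions at 16 members, by the share of the list scoring as high or higher (%, log axes), SCI on the y axis and sham on the x axis, with strong peaks at the top and right. The grey line marks equal standing. Of the points, 14 lie on the side where the sham peak stands higher and 5 where the SCI peak does, 3 of these at Mrpl4. The same count over all shared positions was not made.

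Among SCI peaks within 5 kb of any protein-coding gene 23.0% were shared, so most had no sham peak over them. Likewise, 4 of the 5 members with the highest SCI scores had that peak where no sham peak overlapped it. Mrpl21 had it at a shared position. Mrpl10, which forms the base of the stalk that recruits translation factors, had the highest, 17.97 (top 5.11%), 3368 bp outside the gene at chr11:97038133-97038296 and inside Lrrc46. Its sham peak lay elsewhere, 660 bp outside the gene and also inside Lrrc46, with a score of 15.8 (top 15.2%). Mrps35 (gene ID 232536, chromosome 6, 147042728 to 147070906) held an SCI peak of 17.7 (top 5.37%) at chr6:147055318-147055481, and its highest sham peak, at another place in the gene, scored 10.5 (top 33.0%). Mrpl37, a mitochondria-specific protein, held an SCI peak of 14.8 (top 9.43%) inside the gene. A sham peak of 13 (top 22.3%) lay 2029 bp outside, within Cyb5rl.

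The 4 members with an SCI peak alone were all large-subunit genes with a bacterial counterpart. Mrpl17, located beside the tunnel exit, had a score of 14.9 (top 9.21%) at 3828 bp, with no other protein-coding gene within 5 kb, and its nearest sham peak was 30210 bp away. Mrpl15 had scores of 10.6 (top 23.0%) and 5.32 (top 87.6%) outside the gene. Mrpl19 had 5.24 (top 89.3%) outside and 5 inside, and Mrpl36 had 5. The peaks at Mrpl19 and Mrpl36 were thus among the weakest of the list.

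Some of the strongest sham peaks lay where no SCI peak overlapped them. This is the usual case, as only 9.30% of sham peaks within 5 kb of any protein-coding gene were shared. Mrpl40 had a further sham peak of 40.3 (top 0.893%) 1731 bp outside the gene, with no SCI peak over it. Mrpl45, which anchors the ribosome to the inner membrane at the tunnel exit (gene ID 67036, chromosome 11, 97314923 to 97329920), had 5 sham peaks and no SCI peak. Its highest, 36.6 (top 1.32%) at chr11:97322652-97322727, is 76 bp wide, narrower than the usual 190 bp. The nearest SCI peak lay 10631 bp away.

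Among the other 27 members with sham peaks alone, the peaks inside the gene or within 1 kb ran over the whole range of the list. Mrpl35 had 30.5 (top 2.57%), Mrpl42 had 27.2 (top 3.79%) and Mrpl47 had 23.4 (top 5.90%), all inside the gene and all of the large subunit. Mrpl38 had 16.5 (top 13.8%), Mrps18a 13.6 (top 20.4%), Mrpl1 13.2 (top 21.6%) and Mrps25 13.1 (top 22.0%) inside. The weaker ones lay at Mrps2 (9.18), Mrps24 (8.83), Mrpl49 (7), Mrpl16 (6.43), Mrps11 (6.29), Mrpl33 (5.48), Mrpl50 (top 91.9%) and Mrpl52 (5). Mrps2 had its highest, 28.6 (top 3.23%), at 1805 bp, inside 1700007K13Rik. Mrps11 and Mrpl46 lie 41 bp apart and share 2 sham peaks, which were counted for each.

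The other members with peaks in both lists had them at different positions. Mrpl18 had 11.3 (top 19.8%) in SCI inside the gene and 7.55 (top 55.5%) in sham outside. Mrps27, a pentatricopeptide repeat protein of the small subunit, had 9 (top 32.5%) in SCI and 15.3 (top 16.2%) in sham, both inside. Mrps28, the longest member, held 2 SCI peaks, the higher at 7.42 (top 49.6%), and 3 sham peaks, the highest at 9.13 (top 41.2%). Mrps6 had 8.13 (top 40.7%) in SCI and up to 7.46 (top 57.1%) in sham, and Mrps23 had 6.38 (top 66.5%) in SCI and 5.68 (top 82.8%) in sham. Apart from the peaks of Mrpl18 in SCI and Mrps27 in sham, these stood at the top 32.5% or lower.

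No peak of either list lay within 5 kb of 22 members, 13 Mrpl and 9 Mrps genes. Their median length was 3807 bp, against 8548 bp in the members with a peak. They included Mrpl12, the stalk protein that binds Mrpl10, Mrpl58, a rescue factor built into the ribosome, Mrpl44, Mrpl3, Mrps5 and Mrps16. Over all members, with or without a peak, the farthest from any SCI peak was Mrpl47 at 136292 bp, which had sham peaks. The farthest from any sham peak was Mrps14 at 35027 bp. The median distance to the nearest peak over all members was 7917 bp in SCI and 2203.5 bp in sham.

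The same counts were made for other ribosomal and respiratory families. Of 91 cytosolic ribosomal protein genes, which are shorter still, 22 had an SCI peak within 5 kb, 24.2%, against 19.8% of like length, and 58 a sham peak, 63.7%, against 40.3%. Of 40 complex I subunit genes, 13 had an SCI peak, 32.5%, against 29.2%, and 27 a sham peak, 67.5%, against 53.8%. With sham shortened, the values were 38.5% against 20.4% for cytosolic ribosomal proteins and 42.5% against 30.9% for complex I. Shared positions were found at 20.5% of the mitoribosomal genes, 9.89% of the cytosolic ribosomal genes and 12.5% of the complex I genes, against 9.88, 5.62 and 9.27% of like length. The differences between families were not tested.

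The promoters share letters other than the STAT core. TTCNNNGAA, which reads the same on both strands, was present in 6 of 69 promoters, 8.70%, against 8.92% of all 17491. CCGGAAG, the core of ETS factors such as GABP, a regulator of genes for mitochondrial proteins, was searched on both strands and present in 26, 37.7%, against 12.9% of all. It was present in 37.1% of cytosolic ribosomal and 11.8% of complex I promoters. GCGCATGCG, whose reverse complement overlaps it by all but 1 base, was present on either strand in 7, 10.1%, against 2.61% of all, 4.29% of cytosolic ribosomal and 5.88% of complex I promoters. The median GC content was 58.0% in the family and 56.3% over all promoters, and its part in these shares was not tested.

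**Figure D5:**
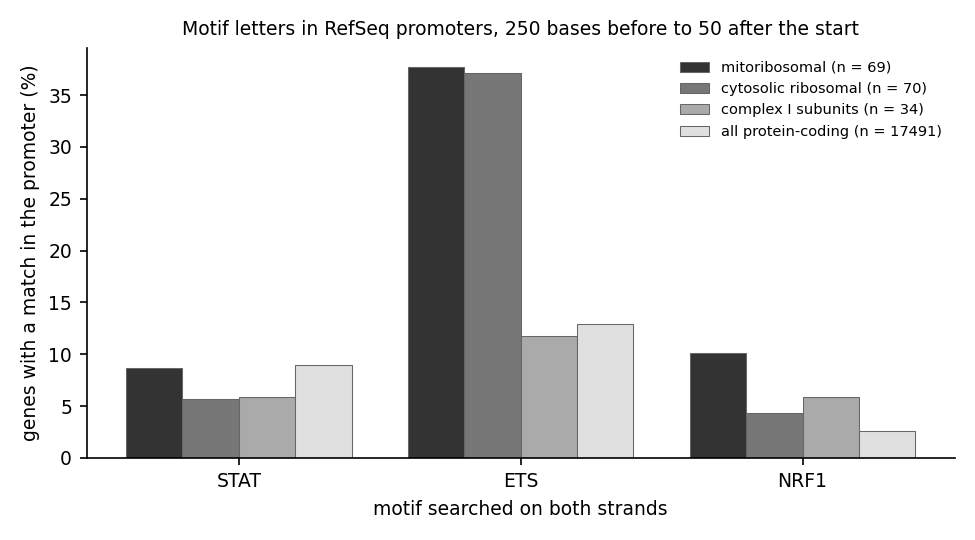
Share of genes (%) whose RefSeq promoter, 250 bases before to 50 after the start, holds the STAT, ETS or NRF1 letters on either strand. Bars from dark to light are mitoribosomal (n = 69), cytosolic ribosomal (n = 70), complex I (n = 34) and all protein-coding promoters (n = 17491). The ETS share is 37.7% in the mitoribosomal promoters and 12.9% over all, and the STAT shares are 8.70% and 8.92%.

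Of 31 ETS matches in the 26 promoters, 26 began within 60 bases of the start. The window ends 50 bases after the start, so every match beyond the start lies that close. The same count was not made for other promoters. The ETS or NRF1 letters were present in 30 members, and both in Mrpl17, Mrpl22 and Mrps18b. The windows below, from RefSeq on GRCm38.p6, run from 100 bases before to 40 bases from the start on and are written along the direction of transcription. They show members with repeated or combined matches, with the ETS or NRF1 letters in capitals. Their places are chr11:58171564-58171703 for Mrpl22, chr6:83109008-83109147 for Mrpl53 and chr11:115403652-115403791 for Mrpl58, all on the plus strand. Mrpl43 lies at chr19:45006403-45006542 and Mrpl32 at chr13:14612998-14613137, on the minus strand.
Mrpl22: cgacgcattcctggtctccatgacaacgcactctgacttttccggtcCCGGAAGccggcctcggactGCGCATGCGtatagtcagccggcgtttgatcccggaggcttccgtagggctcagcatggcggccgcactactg
Mrpl53: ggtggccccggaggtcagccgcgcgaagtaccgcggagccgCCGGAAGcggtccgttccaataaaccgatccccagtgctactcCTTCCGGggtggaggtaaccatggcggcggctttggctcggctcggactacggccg
Mrpl58: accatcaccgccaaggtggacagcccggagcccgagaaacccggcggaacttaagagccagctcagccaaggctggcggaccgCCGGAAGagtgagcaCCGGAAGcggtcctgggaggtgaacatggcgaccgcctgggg
Mrpl43: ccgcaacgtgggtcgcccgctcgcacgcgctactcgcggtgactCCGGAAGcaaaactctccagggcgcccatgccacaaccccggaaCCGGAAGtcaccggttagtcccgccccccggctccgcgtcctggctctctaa
Mrpl32: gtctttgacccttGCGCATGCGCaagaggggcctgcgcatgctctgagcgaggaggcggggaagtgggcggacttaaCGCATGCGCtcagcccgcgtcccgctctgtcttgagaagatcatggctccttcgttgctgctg

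Mrpl53, Mrpl58 and Mrpl43 hold the ETS letters 2 times in this window, Mrpl22 holds ETS and NRF1 letters 13 bases apart, and Mrpl32 holds NRF1 letters at 2 places. Of these, Mrpl53 and Mrpl58 had no peak within 5 kb, Mrpl22 had peaks in both lists, and Mrpl43 and Mrpl32 had sham peaks alone, and in none did a peak lie over the promoter.

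The 6 promoters with the STAT letters were those of Mrpl30, Mrpl34, Mrpl42, Mrpl50, Mrps22 and Mrps25, with 8 matches. Of these 6 genes, 5 had a peak of either list within 5 kb, against 71.8% of the family and 73.2% of all protein-coding genes. At Mrpl42, Mrpl50, Mrps22 and Mrps25 these were sham peaks alone, and only at Mrpl30 did a peak lie over the promoter. In Mrpl34, Mrpl50 and Mrps22 the STAT letters begin on the last 2 bases of a core known from the site of ZNF143, a zinc-finger factor of housekeeping promoters. That core, ACTACANNT, searched on both strands after these windows were seen, was present in 7 of 69 promoters, 10.1%, against 5.40% of all. The windows are shown for this pattern, with the STAT letters in capitals and, in Mrps22, also an ETS match. Mrpl34 holds an ETS match too, from -37 on, which is left in lower case. They lie at chr8:71464826-71464965 on the plus strand for Mrpl34, and on the minus strand at chr4:49521044-49521183 for Mrpl50 and chr9:98601640-98601779 for Mrps22.
Mrpl34: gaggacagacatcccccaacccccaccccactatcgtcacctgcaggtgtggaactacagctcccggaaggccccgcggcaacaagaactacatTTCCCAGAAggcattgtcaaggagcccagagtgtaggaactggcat
Mrpl50: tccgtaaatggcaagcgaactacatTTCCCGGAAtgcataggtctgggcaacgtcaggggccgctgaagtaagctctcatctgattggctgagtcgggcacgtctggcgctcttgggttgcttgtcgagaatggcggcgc
Mrps22: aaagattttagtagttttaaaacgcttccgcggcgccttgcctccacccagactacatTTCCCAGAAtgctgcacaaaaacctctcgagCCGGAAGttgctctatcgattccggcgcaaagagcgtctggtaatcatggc

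Peaks were also counted at other genes of mitochondrial translation. Of 17 mitochondrial aminoacyl-tRNA synthetases, which load transfer RNAs, 12 had an SCI peak within 5 kb and 14 a sham peak, where genes of like length gave 50.6% and 74.9%. For these other genes the values are the highest of each list, which may lie at different places. Tars2 had 16.7 (top 6.58%) in SCI and 10.6 (top 32.5%) in sham, at a shared position. Lars2 had 15.9 (top 7.66%) in SCI and 28.3 (top 3.39%) in sham, at different places.

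Of 22 assembly and rRNA modification factors, 8 had an SCI peak and 18 a sham peak, against 37.2% and 62.1% of like length. Tfb1m, a methyltransferase of the small-subunit rRNA, had a shared position with 11.1 (top 20.3%) in SCI and 46.1 (top 0.520%) in sham. Malsu1, the partner of Mrpl14, had 17.8 (top 5.31%) in SCI and 10.7 (top 31.8%) in sham, at different places and with no shared position. Mettl15, another methyltransferase of that rRNA, had a best score of 8.78 (top 34.9%) in SCI and 43.4 (top 0.657%) in sham, in a long gene.

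Of 15 genes of mitochondrial transcription and its nuclear regulators, 7 had an SCI peak and 14 a sham peak, against 48.1% and 72.8% of like length. Nrf1, which codes for the factor whose letters were searched above, had up to 19.4 (top 4.04%) in SCI and 25.1 (top 4.80%) in sham. Ppargc1a, a long gene of a coactivator of mitochondrial biogenesis, had 5 SCI peaks, up to 14.2 (top 10.6%). It had 23 sham peaks, up to 33.97 (top 1.76%). Yy1 had 13.7 (top 11.7%) in SCI and 7.88 (top 52.4%) in sham. At Nrf1, Ppargc1a and Yy1 the highest SCI and sham peaks lay at different places. Of 14 translation factors, 8 had an SCI peak and 11 a sham peak, against 43.0% and 70.3% of like length. Mtfmt, which formylates the initiator, had 11.6 (top 18.4%) in SCI and 18.97 (top 10.1%) in sham, at different places. Of 6 mitoribosome proteins with other symbols, 2 had an SCI peak and 4 a sham peak, 33.3% and 66.7%, against 29.9% and 53.5% of like length and 43.9% and 66.7% of all genes.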

How the data were processed

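STAT3 ChIP-seq peak lists of 1 SCI and 1 sham library were analysed, matched to their samples by title. Per the submitters' processing notes, Bowtie2 and the build mm10 were used. How peaks were called, against which control and at which threshold, is not stated in the sources used here. The score of a peak is the authors' own deposited value, and it served only to describe, rank and filter within a list. The lists carry no read counts, so depth is unknown.

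Peaks of chromosomes 1 to 19 and of X and Y were set against RefSeq GRCm38.p6 genes, whose primary chromosomes have mm10 coordinates. The gene table used here has no strand, so windows lie on both sides of a gene. Like length means the share of protein-coding genes with a peak in each of 10 length bins, weighted by the members. Intervals are 95% exact Clopper-Pearson. Counting was tested on simulated peaks. Members and lists were chosen with earlier results of these data known, and the density backgrounds, the search for ACTACANNT and the printed windows after seeing these results. The subunit classes were assigned by hand from general knowledge. The text names members with a peak inside or within 1 kb, a shared position, the highest scores or the most peaks, and for other lists up to 3 genes with peaks in both conditions. The tools were matplotlib 3.10.9, scipy 1.17.1, pandas 2.3.3 and numpy 2.4.6 under Python 3.11.15. The values of 1 gene of the other lists are not reported here.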

Additional observations from a re-analysis of the deposited data

How the results depend on the processing

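Of 47 alternatives, 31 kept the direction or a count within 1.5 times, 14 moved a count further and 2 turned a direction. Shortening sham leaves the SCI share as it is. Set against all protein-coding genes with no matching for length, the family stood at -7.95 percentage points in SCI, in place of 5.67, and at -0.00152 in sham, in place of 12.4. The other backgrounds kept the direction. Peaks inside the gene alone gave 14 members in SCI, 27 in sham, 11 in both and 16 in sham alone. Within 1 kb there were 17 in SCI, 13 in both and 10 shared positions. Scores at or above the list median gave 16 in SCI, 12 in both and 7 shared positions. The shortened sham list gave 8 members in SCI alone and 16 in sham alone. Counting each peak for its nearest protein-coding gene only gave 14 in both and 7 in SCI alone. A smaller window or fewer peaks gives fewer members by construction, and the cause of the other shifts was not tested. No paired analysis was possible because each condition has 1 library. Depth is unknown, and no input or list of artefact-prone regions was used to filter peaks.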

Other observations

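Pseudogenes of the family, whose sequence resembles that of a member, were few, and 4 of the 6 had a peak of either list within 5 kb. Among all protein-coding genes 73.2% had one, and the share over pseudogenes in general is not given here. Of these 6 pseudogenes with an Mrpl or Mrps symbol, Mrps36-ps3 had 2 SCI peaks and 0 sham peaks within 5 kb. Mrps36-ps1 and Mrps36-ps2 had 0 SCI peaks and 2 sham peaks each, and Mrpl23-ps1 had 0 SCI peaks and 1 sham peak, while Mrpl27-ps and Mrpl48-ps had none in either list. Mrps36 itself had none. The members lay on 17 chromosomes, 11 of them on chromosome 11 and 8 on chromosome 17, and 20 overlapped another protein-coding gene.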
